A study of Arabidopsis thaliana with 12 samples.

Results

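The loss of phytochrome-interacting factors (PIFs) was examined in Arabidopsis thaliana seedlings that had not been returned to light. Dark-grown pifq, a line mutated in PIF1, PIF3, PIF4 and PIF5, was set against dark-grown wild type (Columbia). Transcripts were measured by RNA sequencing of whole seedlings, from 3 libraries per group in a series of 12 libraries. The seeds of both groups had spent 3 days at 4 °C and 12 h in light, and the seedlings were 4 days old in the dark. Both groups carry no other allele in the labels, and no agent was given. The members are all genes with 1 named entry, values above 0 in both groups and 1 FPKM or more in the higher of them, a rule that 17537 of 30968 named genes met. FPKM is a fragment count scaled by transcript length and library size.

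PIFs are basic helix-loop-helix transcription factors that accumulate in darkness, bind the G-box and related E-boxes in promoters, and keep the seedling in its etiolated form, with a long hypocotyl, closed cotyledons and undeveloped chloroplasts. Light turns the phytochromes into a form that binds PIFs and leads to their degradation. Seedlings that lack several PIFs are known to look partly light-grown in darkness.

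Each gene has a single value per group, without a spread between the 3 libraries, a read count or a p-value. No difference below therefore has a replicate check, the depth is unknown, and "higher" and "lower" mean a ratio of 2-fold or more. By this measure 2307 genes were higher in pifq, 13.2% of those analysed, and 2325 were lower, 13.3%, or 26.4% either way. In wild type 733 analysed genes were under 1 FPKM, and 528 of these were higher. In pifq 631 were under 1 FPKM, and 486 of these were lower. Such genes could enter the analysis only by their level in the other group, so none could go the other way. The median log2 fold over all analysed genes was 0.01, and 53.3% of genes lay within 1.5-fold. A ratio of 16-fold or more was reached by 85 genes in the higher and 105 in the lower direction. Of genes that reached 100 FPKM in either group, 23.0% were lower and 15.3% higher. All 12 housekeeping genes listed were under 2-fold, with ACT7 at 284 FPKM in wild type and 283 in pifq and UBQ10 at 1517 and 1020.4.

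**Figure D1:**
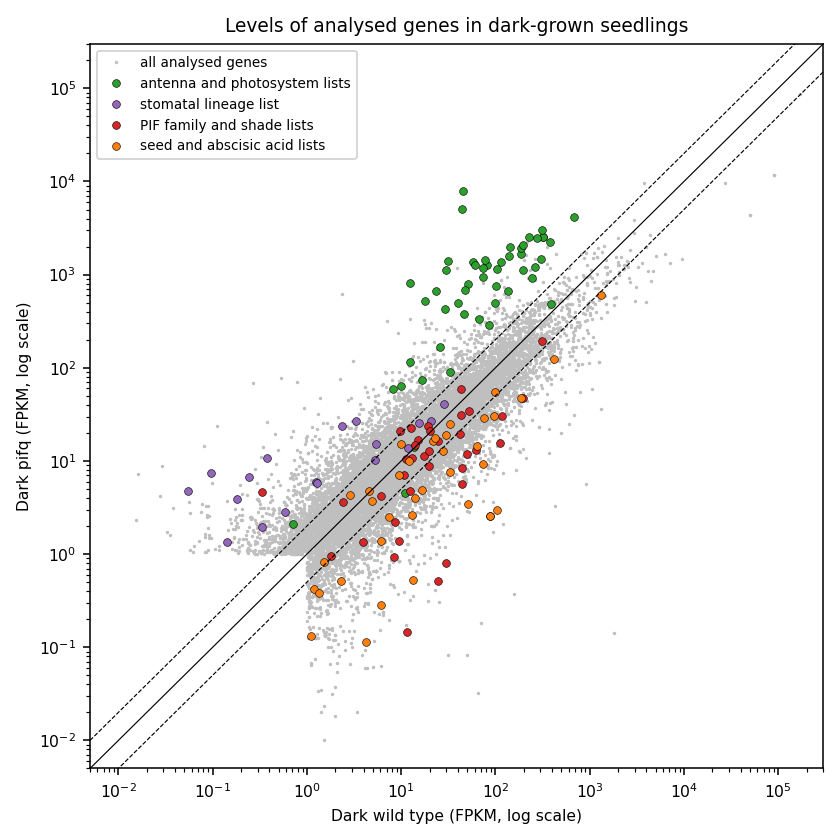
Level of each of the 17537 analysed genes in dark wild type (x axis, FPKM, log scale) and dark pifq (y axis, FPKM, log scale); the solid line marks equal levels and the dashed lines 2-fold. Antenna and photosystem genes lie above the upper dashed line except LHCB4.3, PGRL1B and FD1, while 13 of 14 seed genes lie below the lower one.

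The RNA classes were not evenly balanced between the groups. The plastid-encoded 27 genes analysed had a median log2 fold of -0.42 with 11 lower, and the 68 mitochondrial genes one of -1.34 with 44 lower. Of 48 small nucleolar RNAs, 31 were lower. The FPKM sum over all entries was 1.53e+06 in wild type and 1.01e+06 in pifq, and the ratios were not rescaled for this. Entries without a gene name held 10.5% of the FPKM sum in wild type and 1.05% in pifq. The part of these differences in the nuclear results was not tested, but with protein-coding nuclear genes alone 13.2% were higher and 12.3% lower. Analysed genes include 21 of root, 20 of epidermis, 15 of xylem, 18 of the stomatal lineage and 5 of the shoot meristem, but the meristem markers WUS and CLV3 were under 1 FPKM in both groups.

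The mutated genes themselves differed in how far their transcripts were reduced. PIF3 stood at 30.2 FPKM in wild type and 0.802 in pifq, a 37.7-fold lower level. PIF5 went from 9.44 to 1.39 FPKM, 6.81-fold lower. PIF1 was at 19.2 and 23.7 FPKM and PIF4 at 20.5 and 20.9, both under 2-fold, so the levels of these transcripts do not check the genotype. DET1, a nuclear repressor of light development that is intact in both groups, was at 15.6 and 18.7 FPKM.

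Other members of the PIF family also moved, and in both directions. PIL1, an inhibitor of PIF action whose transcript marks the shade response, was at 24.3 FPKM in wild type and 0.516 in pifq, 47.2-fold lower. HFR1, an atypical family member that sequesters PIFs, was 34.4-fold lower, at 88.0 against 2.56 FPKM. PIF6 was lower as well, at 8.69 and 2.21 FPKM. The opposite held for PIF7, a factor of shade growth, at 0.33 FPKM in wild type and 4.61 in pifq, and for PIF8, at 9.78 and 21.1. SPATULA (SPT) and ALCATRAZ (ALC), known mainly from fruit and cotyledon growth, were under 2-fold at 17.5 and 11.3 FPKM and at 2.39 and 3.65 FPKM. Of the 11 family members analysed, which include the mutated PIF1, PIF3, PIF4 and PIF5, 5 were lower and 2 higher. PIF3 and PIF5 are among those lower. PIF3 and PIL1 were under 1 FPKM in pifq, and PIF7 was under 1 FPKM in wild type. Each of them could enter the analysis only by its level in the other group. Of all genes 13.3% were lower and 13.2% higher.

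Transcripts known to be induced by shade or by PIFs were lower in pifq wherever they passed 2-fold. Of 27 such genes analysed, 13 were lower and 0 higher, and the median log2 fold was -0.92. BBX23 and PRE5, among the lower, were under 1 FPKM in pifq and could enter the analysis only by their wild-type level. The B-box factor gene BBX23 was at 11.6 FPKM in wild type and 0.144 in pifq, and BBX28 at 43.9 and 5.6. ATHB2, a homeodomain factor and a classic shade marker, was 4.16-fold lower at 49.6 against 11.9 FPKM. Small helix-loop-helix proteins that promote cell elongation moved with it, PRE5 from 8.4 to 0.92 FPKM and PRE6 from 195 to 47.5. So did their antagonists IBH1, at 111 and 15.7 FPKM, and PAR2, at 117 and 30.2, so that promoters and inhibitors of elongation were low together. HEC2, which is known to bind PIF1 and keep it from DNA, was at 44.5 and 8.51 FPKM. The remaining 14 lay under 2-fold, among them PAR1 at 42.6 and 31.5 FPKM and BEE2 at 43.0 and 59.4.

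**Figure D2:**
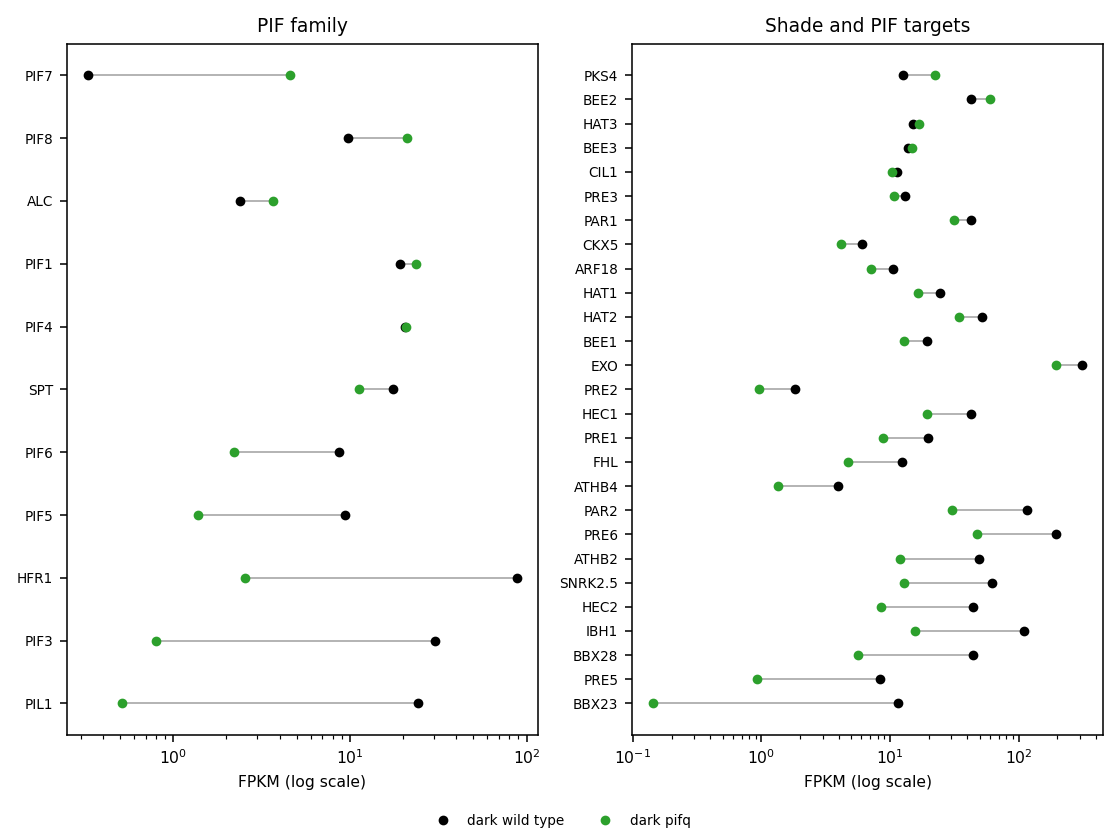
FPKM (x axis, log scale) of the 11 analysed PIF family genes and the 27 shade and PIF target genes in dark wild type (black) and dark pifq (green), ordered by fold within each panel. PIL1, PIF3 and HFR1 show the widest drops of the first panel, and 13 genes of the second are at least 2-fold lower with 0 higher.

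Among light signalling genes, the main phytochromes lay under 2-fold and several downstream factors did not. PHYB, the main red light receptor, was at 18.2 FPKM in wild type and 19.6 in pifq, and COP1, the ubiquitin ligase that removes light-promoting factors in darkness, at 14.2 and 15.3. PHYA, the receptor of dark-grown seedlings, was at 223 and 138 FPKM. The phytochrome gene PHYE, at 2.61 and 5.9, and the cryptochrome gene CRY3, at 1.3 and 6.73, were higher. RPT2, a phototropin partner that is induced by light, was 10.4-fold higher at 18.1 against 189 FPKM. FHY1, which carries PHYA into the nucleus, was 3.25-fold lower at 54.8 against 16.9, and its relative FHL went from 12.5 to 4.73. HY5, a bZIP activator of light development, was itself lower, at 28.8 FPKM in wild type and 12.4 in pifq. The B-box genes split: BBX25 was at 0.378 and 26.1 FPKM, COL2 at 2.95 and 47.1, and BBX15 at 6.98 and 88.9, all higher, whereas BBX24 was lower at 57.0 and 19.0. Over the B-box family by product name, which left out BBX25 because its product name does not mention the B-box, 6 of 23 were higher and 7 lower.

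Genes of the photosynthetic apparatus were higher in nearly every case. Nuclear genes of the light-harvesting antenna, whose proteins bind chlorophyll around the photosystems, were higher in 15 of 16 cases with a median log2 fold of 3.94. LHCA1, an antenna of photosystem I, was at 31.6 FPKM in wild type and 1387 in pifq, 43.9-fold higher. LHCB6, a minor antenna of photosystem II, was at 61.4 and 1265 FPKM, and LHCB3 at 57.2 and 1356. LHCB4.3 was the exception, at 11.1 FPKM in wild type and 4.57 in pifq. In whole seedlings, more cells of a green tissue and more RNA per cell cannot be told apart.

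The abundant LHCB1 genes are near-identical copies, and their values are given together. LHCB1.1 was listed at 44.7 and 7995 FPKM and LHCB1.2 at 44.5 and 5127, ratios of 179 and 115. LHCB1.3 had 1837 FPKM in wild type, LHCB1.5 363 and LHCB1.4 16.1, and these 3 are listed at 0 in pifq. Between 22.9% and 30.9% of the exonic 32-base stretches of each of the 5 genes occur elsewhere in the genome. The sum over the 5 genes was 2306 FPKM in wild type and 13122 in pifq, a ratio of 5.69, far below the ratios of the single copies. Adding the genes listed at 0 lowered the ratio of summed antenna levels from 19.9 to 7.75. The 3 LHCB2 genes, of which LHCB2.2 has 39.8% repeated stretches, summed to 53.8 and 1995 FPKM.

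Subunits of the photosystems and of electron transport followed, with 33 of 35 higher and 0 in the other direction, the median log2 fold being 3.03. PSAH2, a subunit of photosystem I, was at 29.6 FPKM in wild type and 1119 in pifq. PSAO, from the same complex, stood at 76.8 and 1428 FPKM. PSBR of photosystem II was already abundant in darkness, at 676 FPKM, and reached 4135. The FPKM differences were among the 6 largest upward for PSBR, PSAG (227 and 2539 FPKM) and PSBTN (309 and 2997 FPKM). Only FD1, one of the ferredoxins, at 387 and 484 FPKM, and PGRL1B, of cyclic electron flow, at 13.7 and 14.0, stayed under 2-fold, while its paralogue PGRL1A went from 16.6 to 74.2. Nuclear genes of the plastid NDH complex, which also serves cyclic electron flow, were higher in 12 of 13 cases, with NDHU at 1.78 and 23.1 FPKM and PNSL3 at 9.56 and 91.3.

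Carbon fixation genes were higher to a smaller degree. Of 14 Calvin cycle genes 10 were higher and 0 lower, and the median log2 fold was 1.46. Rubisco activase, RCA, was at 133 FPKM in wild type and 1509 in pifq, 11.4-fold higher. GAPA-2, a subunit of the plastid glyceraldehyde-phosphate dehydrogenase, was at 39.9 and 515 FPKM. The Rubisco small subunit genes also had copies listed at 0. RBCS1A was at 3739 and 9725 FPKM, but RBCS1B, RBCS2B and RBCS3B are listed at 0 in pifq after 20.4, 614 and 809.9 FPKM in wild type. The repeated share of these genes ran from 2.21%, in RBCS1A, to 32.8%, and the part of shared sequence in the values at 0 was not tested. Summed over the 4 genes the ratio was 1.88, under 2-fold. Photorespiration genes, which recycle the product of Rubisco's oxygenase reaction, were higher in 6 of 8 cases, such as GLDP1 at 107 and 440.4 FPKM.

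Pigment synthesis genes divided by step. In the tetrapyrrole pathway, which leads to chlorophyll and heme, 19 of 30 genes were higher and 0 lower. HEMA1, the first committed enzyme and its regulated entry point, was at 23.4 FPKM in wild type and 263 in pifq. The magnesium chelatase, which commits the pathway to chlorophyll, was higher in each subunit analysed: CHLH (GUN5) was at 20.9 and 302 FPKM, CHLI1 at 18.2 and 267, and CHLD at 29.4 and 96.7. Its activator GUN4 went from 17.9 to 293 FPKM, 16.4-fold. Chlorophyllide a oxygenase, CAO, which makes chlorophyll b, went from 7.99 to 90.1. The protochlorophyllide oxidoreductases differed from each other. PORB, present in dark and light, was at 235 and 1129 FPKM, while PORA, the form of etiolated seedlings, was at 173 and 181. FLU, the brake on the pathway in darkness, was at 34.4 and 66.9 FPKM, just under 2-fold. The heme and breakdown branches were mixed. The ferrochelatase FC2, at 6.69 and 21.98 FPKM, the bilin reductase HY2, at 1.85 and 5.77, and the chlorophyllase CLH1, at 3.64 and 17.44, were higher. Under 2-fold were the heme-cleaving HO1 at 111 and 68.2 FPKM and the chlorophyll b reductase NYC1 at 48.1 and 42.9.

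**Figure D3:**
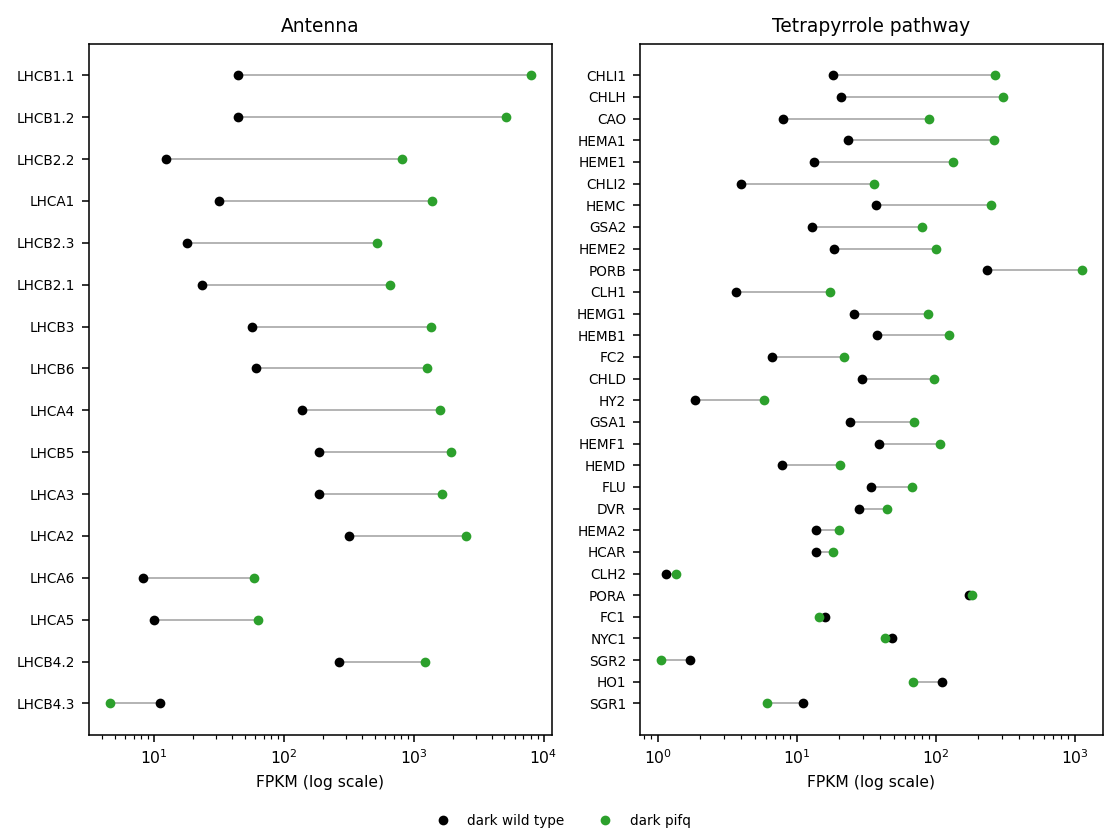
FPKM (x axis, log scale) of 16 antenna genes and 30 tetrapyrrole genes in dark wild type (black) and dark pifq (green), ordered by fold. All antenna genes but LHCB4.3 are higher in pifq, and PORA lies at nearly the same level in both groups while CHLI1, CHLH and CAO are far apart.

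In the isoprenoid and carotenoid list 15 of 22 genes were higher and 0 lower. PSY, phytoene synthase and the entry step of carotenoids, was at 13.1 FPKM in wild type and 128 in pifq, 9.75-fold higher. DXS, the first enzyme of the plastid isoprenoid pathway, was at 75.1 and 245 FPKM. The hydroxylase LUT5 and the cyclase LUT2, both of the lutein branch, were at 1.75 and 17.1 FPKM and at 5.59 and 23.9. ZEP, which makes violaxanthin and so feeds abscisic acid synthesis, was flat at 20.4 and 21.6 FPKM.

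Genes that build the plastid were higher as well. Of 21 genes of plastid transcription 18 were higher and 0 lower, including PTAC16, a protein of the plastid chromosome, at 30.6 and 255 FPKM, and the sigma factors SIG2, at 12.2 and 44.4, and SIG6, at 10.4 and 33.2. The plastid-encoded transcripts named above did not share this direction. In the import machinery 5 of 12 were higher and 1 lower. The inner membrane components TIC110, at 23.8 and 60.03 FPKM, and TIC55, at 5.75 and 25.9, were higher, as was OEP16 of the outer membrane, at 40.03 and 100.04. The outer membrane receptor TOC159, at 82.0 and 110.4 FPKM, and the inner membrane TIC40, at 27.5 and 40.4, were under 2-fold, and OEP7 was lower at 44.9 and 15.9. Pentatricopeptide repeat proteins, most of which process organelle RNA, were higher in 40 of 154 and lower in 1.

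Regulators of greening were few, and 6 of 7 were higher. These 6 include GUN4 and GUN5, which were already given above with the magnesium chelatase. GLK1 and GLK2, which activate antenna and chlorophyll genes, were at 4.6 and 29.0 FPKM and at 16.2 and 81.5. CGA1, a GATA factor, was at 0.0992 and 5.87 FPKM, and its relative GNC, at 12.0 and 21.6, was under 2-fold. GUN1, of plastid-to-nucleus signalling, was at 41.3 and 102. Among photoprotective relatives of the antenna, OHP1 and OHP2 were higher, OHP1 at 143 and 651 FPKM, but ELIP1, the early light-induced protein of excess light, was lower, at 3.39 and 0.256. LIL3:1, which anchors late chlorophyll synthesis, went from 18.0 to 98.2 FPKM, LIL3:2 stood at 203 and 309, and ELIP2 at 5.3 and 2.74. Of 16 redox genes 4 were higher and 2 lower, beside 13.2% and 13.3% of all genes, so the lower count lay near the share of all genes. The thylakoid ascorbate peroxidase TAPX at 9.54 and 71.4 FPKM and the plastid peroxiredoxin PRXQ at 23.9 and 159 were higher, but the plastid CSD2, at 109.6 and 96.4, and SAPX, at 27.7 and 45.3, were under 2-fold. CSD1 of the cytosol, at 381 and 127, and CAT3 of peroxisomes, at 3553 and 1333, were lower.

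Metabolism that depends on the chloroplast was higher in part. GS2, the plastid glutamine synthetase, was at 97.4 FPKM in wild type and 607 in pifq, and the nitrate reductase NIA2 at 71.9 and 355, in a list with 8 of 19 higher and 1 lower. The lower one, ASN1, an asparagine synthetase known as a transcript of darkness and sugar shortage, was at 313 and 141 FPKM. Starch synthesis genes ADG1, at 9.5 and 49.8 FPKM, and GBSS1, at 1.35 and 7.97, were higher, as was QQS, a small orphan gene that affects starch content, at 0.78 and 70.7. The sugar exporters SWEET11 (600.3 and 147 FPKM) and SWEET12 (197 and 68.1 FPKM), and the dark-inducible DIN1 (703 and 269.9 FPKM), were lower. The breakdown of seed oil did not follow: all 16 genes were under 2-fold, with isocitrate lyase, ICL, at 507 and 525 FPKM.

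**Figure D4:**
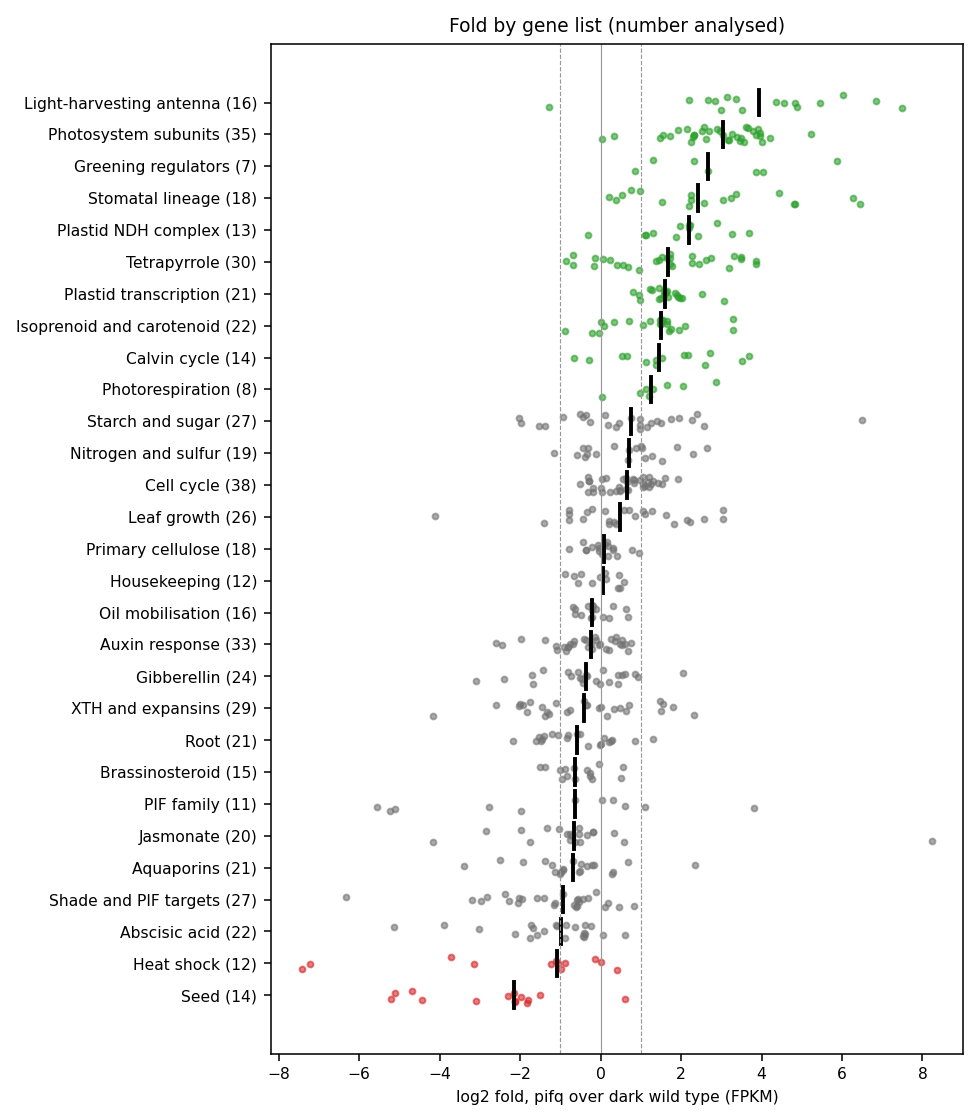
Log2 fold of pifq over dark wild type (x axis) for the analysed members of 29 gene lists, 1 point per gene, with the list median as a black bar and dashed lines at 2-fold; points are green or red where the median passes 2-fold. Medians run from 3.94 for the antenna to -2.15 for seed genes, with housekeeping genes at 0.05.

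More cell elongation genes were lower than higher, and both wall-loosening families contained members of each direction. Of 29 xyloglucan endotransglucosylases (XTH), which remodel wall xyloglucan, and expansins, which loosen walls, 12 were lower and 5 higher. XTH15 was at 1064 FPKM in wild type and 59.0 in pifq, 18.0-fold lower, XTH24 at 855 and 208, and XTH5 at 26.0 and 4.28. EXPA11 was at 155 and 43.5 FPKM. Against this, EXPA1, EXPA5, EXPA6, EXPA10 and XTH9 were higher, EXPA1 at 48.3 and 142 FPKM and XTH9 at 9.47 and 47.2. Genes of primary wall cellulose and its partners showed no member past 2-fold in 18, with CESA1 at 161 and 158 FPKM and CESA6 at 89.3 and 99.5. Arabinogalactan and fasciclin proteins of the cell surface were lower in 17 of 44 and higher in 5, AGP22 being at 760.4 and 107 FPKM.

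Among growth hormone genes the SAUR family stood out by its count, and most other lists lay nearer the shares of all genes. The SAUR family, small proteins that auxin induces and that promote cell expansion, had 36 of 68 members lower and 8 higher. SAUR23 was at 34.5 FPKM in wild type and 4.51 in pifq. Of 33 auxin response genes 6 were lower, 18.2% against 13.3% of all genes, and 0 higher: the Aux/IAA repressors IAA19, at 166 and 27.2 FPKM, IAA6, at 45.2 and 8.31, and IAA17, at 331 and 83.3, led these. Of 22 auxin synthesis and transport genes 4 were higher, 18.2% against 13.2% of all genes, and 0 lower. PIN6, 1 of these 4, was at 0.343 FPKM in wild type and could enter the analysis only by being higher in pifq. Also among the 4 was the efflux carrier PIN4, at 31.6 and 72.1 FPKM, while PIN3 was under 2-fold at 68.8 and 117. In the gibberellin list 5 of 24 genes were lower. GA3OX1, the last step of synthesis, was at 31.3 and 5.97 FPKM, and the responsive GASA4 and GASA1 were at 5043 and 1576 and at 2696 and 826. GASA6 was the one higher, at 141 and 578. The brassinosteroid enzymes ROT3 and BR6OX2 were lower, ROT3 at 45.5 and 16.1 FPKM, while the receptor BRI1 was at 55.8 and 43.7. HLS1, which is needed for the apical hook, was at 10.7 and 4.87 FPKM, a difference that fell under 2-fold when 1 FPKM was added to both values. Ethylene genes were lower in 3 of 21 and higher in 1, with EIN3 at 128 and 87.3 FPKM. Aquaporins, which admit water to expanding cells, were lower in 7 of 21 and higher in 1, with PIP2;4 at 694 and 122 FPKM and PIP2;8, the higher one, at 8.77 and 44.6. TIP1;2, which is listed at 0 in wild type and at 4796 FPKM in pifq, was left out of that count.

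Transcripts of seed maturation, found at low levels in wild-type seedlings, were lower still in pifq. Of 14 analysed, 13 were lower and 0 higher, the median log2 fold was -2.15, and their summed level was 373 FPKM in wild type and 72.3 in pifq. CRA1, CRU3, SESA2, SESA3, OLEO1, M17 and ECP63 were under 1 FPKM in pifq. They could enter the analysis only by their wild-type level, so none of them could have been higher. OLEO3, an oleosin of oil bodies, was at 88.5 FPKM and 2.58, 34.3-fold lower. CRA1, a cruciferin storage protein, was at 13.5 and 0.524 FPKM, and EM6, a late embryogenesis protein, at 33.2 and 7.63. Of 63 genes with late embryogenesis in their product name, 30 were lower and 6 higher, beside 13.3% and 13.2% of all genes. This wider set was not limited to seed genes and includes hydroxyproline-rich glycoproteins such as NDR1. Most levels of the 14 seed genes were low, and with 1 FPKM added to both values 10 of the 14 remained at least 2-fold lower.

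Abscisic acid genes shared this direction, 11 of 22 being lower and 0 higher. The dehydrin RAB18 was at 105 FPKM in wild type and 2.96 in pifq, KIN1 at 51.0 and 3.46, and RD29B at 74.5 and 9.24. The factors that act on such genes were split. ABI5, at 7.49 and 2.48 FPKM, and ABF3, at 96.6 and 30.1, were lower. ABF1, ABF2 and ABI3 were under 2-fold, ABF2 being at 33.2 and 25.1 FPKM. The protein phosphatase gene ABI1 was lower as well, at 76.5 and 29.0 FPKM. NCED3, the rate-limiting enzyme of synthesis under stress, was at 16.4 and 4.89 FPKM, whereas ABA2, which acts further down that pathway, was at 10.02 and 15.1. Jasmonate genes went the same way in 6 of 20, with VSP1 at 17.3 and 0.971 FPKM and the factor MYC2 at 52.6 and 15.5. LOX2, a plastid lipoxygenase of that pathway, was higher, at 0.0294 FPKM in wild type and 8.82 in pifq. It could enter the analysis only by its level in pifq. VSP1 and VSP2, both among the 6 lower, were under 1 FPKM in pifq and could enter only by their wild-type level. Heat shock genes were lower in 7 of 12 cases, several of them near the minimum level, HSP17.4 being at 3.42 and 0.020 FPKM. HSP17.4, HSP17.6, HSP17.6II and HSP22.0 were under 1 FPKM in pifq and could enter the analysis only by their wild-type level.

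Genes of the stomatal lineage were higher from its first steps. Of 18 analysed 13 were higher and 0 lower, and the median log2 fold was 2.41. SPCH, the factor that starts the lineage, was at 0.379 FPKM in wild type and 10.9 in pifq. The receptor TMM, which spaces stomata, was at 2.33 and 23.8 FPKM, and SCRM2, the partner of SPCH, at 3.28 and 27.2. POLAR and BASL, polarity proteins of the dividing precursor, were at 0.0961 and 7.49 FPKM and at 0.181 and 3.91. FAMA, the late factor of guard cells, went from 1.26 to 5.91, while MUTE, which acts between SPCH and FAMA, was higher too but at a low level, at 0.144 and 1.35. Of these 18 genes, 8 were under 1 FPKM in wild type and could enter the analysis only by being higher in pifq; of the 10 others 5 were higher. YDA, ER and SCRM, which also serve other tissues, were under 2-fold. So were EPFL9 (stomagen), at 28.2 and 40.4 FPKM, and KAT1, at 5.27 and 10.3. YDA was at 11.8 and 13.7 FPKM, ER at 20.5 and 27.0, and SCRM at 15.3 and 25.8.

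**Figure D5:**
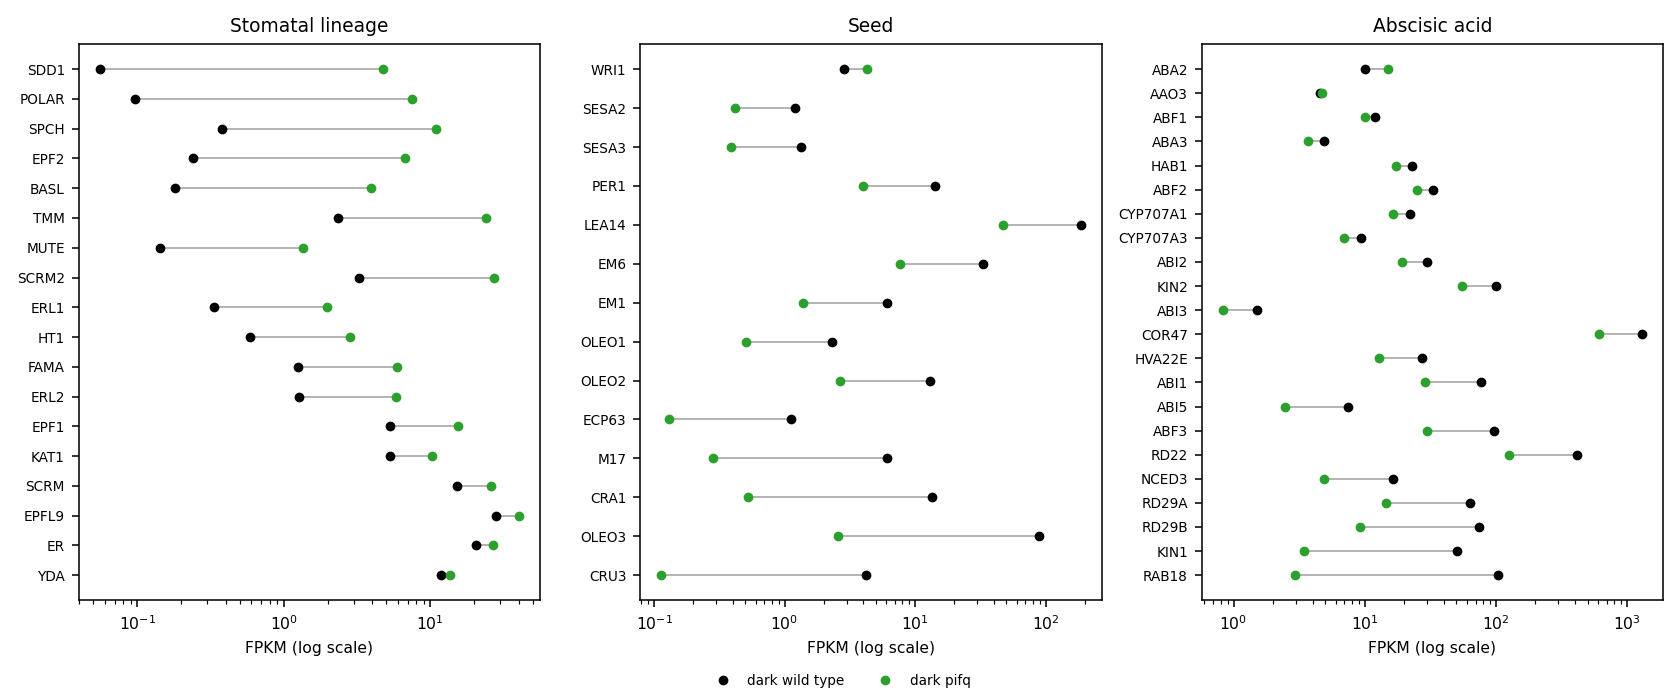
FPKM (x axis, log scale) of 18 stomatal lineage, 14 seed and 22 abscisic acid genes in dark wild type (black) and dark pifq (green), ordered by fold. In the first panel 13 genes are at least 2-fold higher in pifq, and in the others 13 and 11 are at least 2-fold lower.

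Some genes of leaf growth and cell division were higher. Of 26 leaf growth genes 10 were higher and 2 lower. The widest rises were in TCP factors that promote maturation of cotyledons and leaves: TCP3 was at 5.28 FPKM in wild type and 43.7 in pifq, TCP10 at 2.27 and 18.8, TCP4 at 4.46 and 26.5 and TCP24 at 4.01 and 18.7. The growth factor GRF7 was one of the lower, at 27.8 and 1.6. Cell cycle genes were higher in 13 of 38 and lower in 0. The D-type cyclins CYCD3;2, at 11.9 and 45.2 FPKM, and CYCD3;1, at 8.29 and 22.4, and the replication helicase subunits MCM3, at 2.74 and 8.35, and MCM4, at 3.18 and 7.84, were among them. Mitotic kinases such as CDKB2;1, at 20.8 and 21.3 FPKM, were flat. Most of the higher genes were under 10 FPKM in wild type, and with 1 FPKM added to both values 6 of the 38 were higher. Of the shoot meristem list only 5 genes were analysed. STM, which maintains the meristem, was at 5.83 and 5.02 FPKM, KNAT2 at 2.83 and 2.19, HEC3 at 3.03 and 2.18, LAS at 1.54 and 0.892, and the receptor CLV1 at 7.29 and 15.7.

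Root genes were partly lower. Of 21 analysed, 8 were lower and 1 higher, and their summed level was 1272 FPKM in wild type and 598 in pifq. The lower ones were mostly of the endodermal barrier: CASP1, which lays down the Casparian strip, was at 342 and 128 FPKM, CASP5 at 262 and 90.8, and their regulator MYB36 at 22.2 and 8.06. SCR and SHR, which specify that cell layer, were level, SCR at 20.2 and 20.02 FPKM and SHR at 19.0 and 23.1. PRP3, a wall protein of root hairs, was at 63.7 and 23.0. Xylem genes were lower in 2 of 15 and higher in 1, near the shares of all genes, with a summed level of 465 and 280 FPKM. The part of organ size in these values was not tested.

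Epidermal genes were split between members of the same family. Among lipid transfer proteins of the surface, LTP2 was at 9450.3 FPKM in wild type and 1489 in pifq and LTP4 at 70.9 and 0.181, both lower. LTP1, at 199 and 1419.9 FPKM, and LTP5, at 263 and 877, were higher. CER1, of wax alkane synthesis, was 8.72-fold lower at 162 against 18.5 FPKM. PDF1, an epidermal marker, was at 326 and 484 FPKM, and CER6 at 591 and 381. The summed level of the 20 genes was 12671 FPKM in wild type, most of it LTP2, and 6103 in pifq. Of 8 trichome genes, ETC2 and ETC3, which inhibit hair formation, were higher, ETC2 at 2.8 and 22.8 FPKM, and TRY, of the same type, was lower at 1.18 and 0.406. The other 5, CPC, GL2, WER, TTG2 and ETC1, were under 2-fold, GL2 being at 5.24 and 4.37.

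Clock genes lay near the share of all genes, with 2 of 19 higher and 3 lower. PRR7, a repressor within the clock, was at 10.9 FPKM in wild type and 1.11 in pifq, and LNK1 at 4.47 and 0.722. LHY, of the morning loop, was higher at 14.0 and 38.2 FPKM, and TOC1 was at 40.8 and 31.0. Of 15 flowering genes 7 were higher and 2 lower. SPL3, SPL4 and SPL9, all among the higher, were under 1 FPKM in wild type and could enter the analysis only by being higher in pifq. The higher ones included the B-box genes COL1, at 8.89 and 33.6 FPKM, and COL3, at 162 and 396, and the phase-change factor SPL3, at 0.351 and 3.09, while the floral integrator SOC1 was lower at 3.05 and 1.11. Of 13 flavonoid genes 5 were higher and 2 lower. FLS1 and MYB111, among the higher, were under 1 FPKM in wild type, and PAP1, among the lower, was under 1 FPKM in pifq. Each of these could enter the analysis only by its level in the other group. The chalcone isomerase TT5 was just past 2-fold, at 7.59 and 15.5 FPKM, and the flavonol glycosyltransferase UGT78D1 was higher at 2.53 and 14.7. CHS, chalcone synthase, at 4.76 and 8.26 FPKM, and F3H, at 51.0 and 58.3, were under 2-fold. The anthocyanin repressor MYBL2 was 6.07-fold lower, at 46.6 against 7.67 FPKM. Phenylpropanoid genes were under 2-fold in 10 of 13, PAL1 being at 126 and 101 FPKM.

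Over all genes, promoters of lower genes held PIF-type boxes more often than those of higher genes, but single lists did not all follow this order. The G-box CACGTG, which reads the same on both strands, and the E-box CACATG, searched on both strands (CATGTG on the other), were sought in the 300 bases before each protein-coding gene's annotated start in TAIR10.1 (RefSeq). Either box was present in 26.3% of 2054 promoters of lower genes, 17.7% of 2205 of higher genes and 19.9% of all 16741. For genes at least 4-fold lower the share was 32.3%, against 20.4% at least 4-fold higher. The G-box alone was in 10.5%, 7.03% and 8.1% of the lower, higher and all promoters. By list, either box was in 43.8% of 16 antenna, 28.6% of 35 photosystem and 26.7% of 30 tetrapyrrole promoters, lists with mostly higher genes. It was in 33.3% of 27 shade and PIF target and 36.4% of 22 abscisic acid promoters, and in 7 of 14 seed promoters. A match says that the letters are present, not that a factor binds.

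Among promoters free of other genes, 6 with a G-box are shown for the groups described above, 3 of lower and 3 of higher genes. Each is the 300 bases before the start, 5′ to 3′ on the gene's strand, with the G-box and the E-box in capitals. IAA19 lies at chr3:5263701-5264000 (plus strand), ABI5 at chr2:15207637-15207936 (minus strand), OLEO3 at chr5:20819768-20820067 (plus strand), CAO at chr1:16851272-16851571 (minus strand), PSBQ-2 at chr4:2673244-2673543 (minus strand) and LHCA4 at chr3:17495034-17495333 (minus strand), all in TAIR10.1.
IAA19: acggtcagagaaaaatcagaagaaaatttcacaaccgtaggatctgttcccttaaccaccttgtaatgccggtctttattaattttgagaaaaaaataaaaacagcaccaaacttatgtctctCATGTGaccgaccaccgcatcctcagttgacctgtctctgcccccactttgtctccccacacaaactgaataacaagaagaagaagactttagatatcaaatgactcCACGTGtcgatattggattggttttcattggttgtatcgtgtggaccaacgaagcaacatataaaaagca
ABI5: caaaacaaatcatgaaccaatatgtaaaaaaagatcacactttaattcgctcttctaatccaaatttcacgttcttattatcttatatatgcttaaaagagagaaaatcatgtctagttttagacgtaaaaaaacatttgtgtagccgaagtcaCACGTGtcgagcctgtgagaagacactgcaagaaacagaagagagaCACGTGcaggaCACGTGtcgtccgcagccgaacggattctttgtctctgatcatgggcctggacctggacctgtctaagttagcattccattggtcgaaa
OLEO3: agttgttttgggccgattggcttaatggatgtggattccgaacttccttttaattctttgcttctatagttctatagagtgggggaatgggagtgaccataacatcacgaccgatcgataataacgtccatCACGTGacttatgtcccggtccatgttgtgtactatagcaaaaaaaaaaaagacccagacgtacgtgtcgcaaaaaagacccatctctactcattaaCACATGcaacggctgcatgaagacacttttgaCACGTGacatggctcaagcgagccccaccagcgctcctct
CAO: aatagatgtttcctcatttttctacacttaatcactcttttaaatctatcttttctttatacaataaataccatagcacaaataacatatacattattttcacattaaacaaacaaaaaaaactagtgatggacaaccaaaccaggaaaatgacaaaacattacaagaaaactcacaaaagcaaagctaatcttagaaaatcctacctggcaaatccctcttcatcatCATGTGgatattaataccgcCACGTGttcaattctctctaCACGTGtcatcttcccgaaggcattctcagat
PSBQ-2: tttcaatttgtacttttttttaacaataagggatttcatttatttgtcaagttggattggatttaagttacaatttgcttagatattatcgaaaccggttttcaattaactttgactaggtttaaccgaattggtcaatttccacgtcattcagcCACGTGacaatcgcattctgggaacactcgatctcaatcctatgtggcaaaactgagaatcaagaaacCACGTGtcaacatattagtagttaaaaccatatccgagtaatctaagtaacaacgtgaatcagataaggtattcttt
LHCA4: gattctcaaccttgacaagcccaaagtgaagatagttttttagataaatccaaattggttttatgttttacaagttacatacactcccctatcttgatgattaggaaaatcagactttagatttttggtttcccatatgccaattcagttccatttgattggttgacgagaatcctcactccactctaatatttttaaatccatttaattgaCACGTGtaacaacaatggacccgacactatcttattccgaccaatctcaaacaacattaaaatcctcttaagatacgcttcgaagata
The G-box of IAA19 begins 70 bases before the start, those of ABI5 146, 100 and 89 bases before it, and those of OLEO3 169 and 40. In the higher genes the boxes of CAO begin 52 and 32 bases before the start, those of PSBQ-2 145 and 77, and that of LHCA4 88. IAA19 was 6.12-fold lower and OLEO3 34.3-fold lower, while PSBQ-2 was 15.6-fold higher at 50.7 against 789 FPKM and LHCA4 11.5-fold higher at 139 against 1603, so genes of both directions carry the same box within this window.

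The widest single ratios belonged to a mixture of genes. Of genes that reached 5 FPKM in either group, the highest ratios were those of GH3.9, of the auxin-conjugating family, at 0.016 and 7.31 FPKM, and LOX2. They were followed by AT5G48490, of the lipid transfer superfamily, at 2.34 and 618 FPKM. AT4G13575, at 0.269 and 68.8, AT1G10657, at 0.113 and 23.7, AT1G26761, at 0.0814 and 14.5, and AT4G28780, a lipase-like gene, at 0.537 and 78.1, came next, beside the antenna genes and QQS. Several of these ratios rest on wild-type values near 0 and are not bounds. Among abundant genes, the germin-like GER1 was at 39.3 and 1164 FPKM, AT1G21500 at 7.06 and 318, and the miRNA gene MIR850 at 3.08 and 119.

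In the lower direction the widest ratios are less certain. AT2G07795, at 1816 and 0.143 FPKM, has 94.3% of its exonic 32-base stretches elsewhere in the genome, and the pseudogene AT4G02312, at 65.4 and 0.0323, has 54.3%. The plastid gene ATCG01290, at 157 and 0.378 FPKM, and the small nucleolar RNAs AT3G21805, at 909 and 5.7, and AT3G50825, at 431 and 3.3, belong to the unbalanced classes described above. AT2G12905, at 31.2 and 0.0823 FPKM, and the pseudogene AT2G13146, at 6.16 and 0.0635, also share part of their sequence with other loci. Protein-coding genes with little or no repeated sequence and such ratios were AT5G04120, at 50.02 and 0.082 FPKM, LTP4, AT3G62990, at 25.1 and 0.308, and, among abundant genes, MRN1, which acts in marneral synthesis, at 119 and 2.12, and AT4G37220, at 368 and 12.3. The 6 largest FPKM differences downward were mostly in repeated or plastid entries. AT2G01021, annotated as an uncharacterized protein whose 32-base stretches all occur elsewhere, was at 169568 and 86326 FPKM, a difference just under 2-fold. The ribosomal RNA genes AT2G01020 and AT3G41979, which are repeated throughout as well, had the same values, 90385 and 11869 FPKM. The plastid entries ATCG00960 and ATCG01170 also shared theirs, 49583 and 4392 FPKM. The last was the protein-coding nuclear gene AT1G07590, at 27386 and 9575.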

How the data were processed

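RNA from whole seedlings was sequenced from Illumina libraries, per the labels' protocols. Reads were processed with TopHat and Cufflinks on TAIR10, per the submitters' processing notes. Versions, settings and strand handling are not given in the sources used here. FPKM values were deposited by the authors in 3 tables, with dark wild type in each and 1 value per gene and group. No header names the unit, which was inferred from the use of Cufflinks and from the range of values. The table of pifq and dark wild type was used, and the 2 value columns of other groups were not. Without values per library the planned test by limma could not be run and depth is unknown. A printed ratio carries no SD or n.

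Ratios of the FPKM values were taken without a pseudocount and expressed as log2. Of 31968 entries, 231 had no gene name, and 523 genes with several entries were left out. Of genes with an entry each, 12670 were under 1 FPKM in both groups and 238 were at 0 in 1 group with at least 1 FPKM in the other. The deposited log2 ratios differed from those computed by at most 4.46e-05 where the authors' program had made a comparison, and 284 analysed genes had none. Of 17537 genes, 17398 matched the RefSeq annotation of TAIR10.1, used for names, products, promoters and repeated sequence, the share of 32-base exonic stretches found elsewhere. The 49 lists hold 1123 genes, 894 analysed, and families were taken by product name. Members and lists were chosen with earlier results of these data known, and counts of lists are a description beside those of all genes. Genes were named by rule: the PIFs, DET1 and HY5, the 10 widest ratios each way at 5 and at 100 FPKM, the 6 largest differences each way, up to 4 members of a list or family each way at 5 FPKM, every member of a list of at most 12, and members next to these by role. Python 3.11.15, pandas 2.3.3 and numpy 2.4.6 were used.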

Additional observations from a re-analysis of the deposited data

How the results depend on the processing

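The counts of 2307 higher and 2325 lower genes depend most on how low values are treated and on the fold used as a call. With 5 FPKM added to both values 933 were higher and 1108 lower, and with no minimum level 3986 were higher. At 1.5-fold 4157 were higher and 4036 lower, and at 4-fold 710 and 673. With 1 FPKM added, a minimum of 5 FPKM, the median subtracted, or genes left out that the authors' program had not compared or whose dark wild type value differed by over 1.5-fold between tables (1979 genes), both counts stayed within 1.5 times. So they did for protein-coding nuclear genes alone (2206 and 2054) and without genes with 20% or more repeated sequence (2187 and 2088), 2 alternatives chosen after seeing the data. No list or family median changed direction under any of these. No named gene past 2-fold did where it could be computed, which was for 199 to 227 of the 227 genes by setting. For single genes this was fixed in advance and is no check of their direction. An FPKM value added to both groups cannot reverse a ratio, and leaving genes out does not alter it. The median subtracted was a log2 fold of only 0.01. Of 103 medians, the seed list at -0.96, the stomatal list at 0.79, the SAUR family at -0.54, the heat list at -0.54 and the oleosins at -0.97 fell under 2-fold with 5 FPKM added. Of 227 named genes 38 fell under 2-fold with 5 FPKM added and 7 with 1 FPKM, among them HY5 at -0.95 with 5 FPKM. No paired analysis was possible because the table holds 1 value per group, and leaving out libraries was not run for the same reason. The depth that limits low values is unknown.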
